A study of Mus musculus with 4 samples.

Results

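The costimulatory receptors and ligands of immune cells in a mouse tumour were followed here through 10 genes: the tumour necrosis factor (TNF) receptors Tnfrsf4, Tnfrsf9, Tnfrsf18, Cd27 and Cd40, the immunoglobulin-type receptors Cd28 and Icos, and the membrane ligands Cd40lg, Cd80 and Cd86. They were chosen by name, and all 10 were found among the 31253 gene features of the count tables. The study grew subcutaneous tumours of MC38, a mouse colon adenocarcinoma line, in 8-week-old mice and took them on day 16, untreated. CD45+ cells, that is, cells carrying the leukocyte surface antigen, were sorted from the digested, frozen and thawed tumours for 10x Genomics single-cell RNA sequencing with the 3' kit. Of 4 libraries, 2 were labelled cKO, from Ufl1 conditional knockout mice, and 2 WT. The series title places the ablation of Ufl1, the ligase of the UFM1 protein modifier, in T cells. Neither a Cre line nor the deleted exons are named in the labels. It is also not stated that the libraries stem from different mice, and p-values therefore measure the spread between libraries, which may be technical.

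Antigen receptor signals alone activate T cells poorly, and CD28, bound by CD80 or CD86 on antigen-presenting cells, supplies the classical second signal. The TNF receptors OX40 (Tnfrsf4), 4-1BB (Tnfrsf9), GITR (Tnfrsf18) and CD27 act alongside or after it. They recruit TRAF adaptors and activate NF-kB, which promotes survival and division, and several are known to be abundant on regulatory T cells in tumours. CD40 works in the opposite direction, since its ligand CD40LG sits on activated helper T cells and licenses dendritic cells and B cells.

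Several of these genes lie close together. In the GENCODE M21 annotation of mouse build GRCm38, matched by gene ID, Tnfrsf4 occupies chromosome 4 from 156013843 to 156016612. Tnfrsf18 follows on the same strand from 156026164 to 156028895, with 9551 bases between them. Tnfrsf9 lies on the same chromosome, from 150914562 to 150946102. Cd28 spans chromosome 1 from 60716800 to 60773359 and Icos from 60977927 to 61000320, with Ctla4, the inhibitory receptor for the same CD80 and CD86 ligands, between them. Cd80 and Cd86 are both on chromosome 16, separated by 1789479 bases. Cd27 is on chromosome 6, Cd40 on chromosome 2 and Cd40lg on the X chromosome.

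The start regions of the 3 TNF receptor genes of chromosome 4 are shown because these genes have their highest level in the same cells, Treg. Each window runs from 250 bases before to 50 bases after an annotated transcript start, on the plus strand, from RefSeq, GRCm38.p6. RefSeq windows were matched for 5 of the 10 genes, and Tnfrsf9 has a pair of them, from different starts. Capitals mark matches to the NF-kB consensus or to the AP-1 motif TGANTCA, searched on both strands together with the forkhead motif TGTTTAC.
Tnfrsf4, chr4:156013445-156013744: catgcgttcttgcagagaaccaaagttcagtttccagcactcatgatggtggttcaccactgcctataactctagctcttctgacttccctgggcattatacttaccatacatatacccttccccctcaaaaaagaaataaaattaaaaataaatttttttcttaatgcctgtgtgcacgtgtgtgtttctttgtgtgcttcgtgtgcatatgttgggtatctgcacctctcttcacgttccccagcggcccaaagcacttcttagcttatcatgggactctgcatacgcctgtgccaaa
Tnfrsf18, chr4:156026072-156026371: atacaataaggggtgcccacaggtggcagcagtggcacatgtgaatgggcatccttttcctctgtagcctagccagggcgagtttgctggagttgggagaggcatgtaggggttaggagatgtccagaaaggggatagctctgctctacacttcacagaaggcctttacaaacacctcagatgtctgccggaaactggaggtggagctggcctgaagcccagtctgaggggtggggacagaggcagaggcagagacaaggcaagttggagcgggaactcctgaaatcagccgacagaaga
Tnfrsf9, first start, chr4:150919905-150920204: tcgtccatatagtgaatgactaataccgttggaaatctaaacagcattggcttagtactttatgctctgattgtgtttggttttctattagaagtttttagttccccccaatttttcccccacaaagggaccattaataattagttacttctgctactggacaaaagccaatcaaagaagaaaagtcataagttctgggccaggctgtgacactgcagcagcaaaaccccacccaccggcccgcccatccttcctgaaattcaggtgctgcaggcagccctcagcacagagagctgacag
Tnfrsf9, second start, chr4:150927749-150928048: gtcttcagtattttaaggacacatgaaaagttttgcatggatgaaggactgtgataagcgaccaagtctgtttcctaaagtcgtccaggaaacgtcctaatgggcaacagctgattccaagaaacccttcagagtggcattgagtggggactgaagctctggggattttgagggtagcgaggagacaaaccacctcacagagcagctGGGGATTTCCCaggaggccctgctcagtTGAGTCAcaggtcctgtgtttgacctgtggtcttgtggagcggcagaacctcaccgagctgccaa
The second Tnfrsf9 window held overlapping NF-kB matches that begin at its position 208 and at the next base, and an AP-1 match at position 236. The windows of Tnfrsf4, Tnfrsf18, Cd27 and the first Tnfrsf9 start held no match to any of the 3 motifs, and the Cd80 window held 1 AP-1 match. Over 32851 windows of the same length, 4.51% held the NF-kB consensus, 7.81% the AP-1 motif and 3.65% the forkhead motif. A match is a description of the letters and was not tested for binding.

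The libraries held 7885 and 8098 cell barcodes in cKO and 7352 and 9466 in WT, with median depths of 7584 and 8668 unique molecular identifiers (UMIs, each marking 1 captured RNA molecule) per kept cell in cKO and 7488 and 7287 in WT. cKO library 2 and WT library 1 shared 471 kept barcodes, against 84 to 101 for the other pairs of libraries. In WT library 1 those barcodes had a median of 17498 UMIs, and in cKO library 2 a median of 759. They made up 5.89% of kept cells in cKO library 2 and 6.48% in WT library 1, and calls were also made without them. Xist stood at 297 CPM (UMIs scaled to a common library total of 1e6) in cKO library 2 and at or below 0.906 CPM in the other 3 libraries. Ufl1 itself had 14.8 and 20 CPM in cKO T cells against 15.5 and 16.2 CPM in WT T cells, a log2 difference of 0.06 ± 0.20 (SE, adjusted p = 1.00, edgeR). Without knowledge of the removed exons, a whole-gene count does not check the ablation.

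Cells were assigned to 13 separate gates by UMIs of marker genes, none of them among the 10 genes. The T cell gates were regulatory T cells (Treg, Foxp3), conventional CD4 T cells (Cd4 without Foxp3), CD8 T cells with or without a UMI of Pdcd1, the gene of the inhibitory receptor PD-1, and gamma-delta T cells (Trdc). The others were NK cells, B cells, migratory dendritic cells (Ccr7 and Fscn1), type 1 and type 2 conventional dendritic cells (cDC1, cDC2), plasmacytoid dendritic cells, monocytes and macrophages. The conventional CD4 gate also excluded cells with a UMI of Ikzf2, Cd8a, Cd8b1 or Trdc, and the Treg gate did not require Cd4. In addition, 2 wider gates took all T cells, including those in none of the T cell subsets, and all CD8 T cells. All gates together held 4746 and 4952 cells of the cKO libraries and 4308 and 6014 of the WT libraries, each cell counted once. Genes outside the gates followed the names in most cases. Il2ra averaged 734 CPM in Treg against 166 CPM in the next gate, migratory dendritic cells, and Ccl22 averaged 529.6 CPM in migratory dendritic cells against 3.74 CPM in the next gate, macrophages. The cDC1 gate did not lead in Irf8 or Cadm1, the plasmacytoid gate not in Irf7, the cDC2 gate not in Clec10a, and the Pdcd1+ CD8 gate not in Lag3 or Havcr2. Levels below are CPM of a gate's summed UMIs in a library, given as mean ± SD over 4 libraries where not per library. They are comparable for 1 gene between gates, not between genes.

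**Figure D1:**
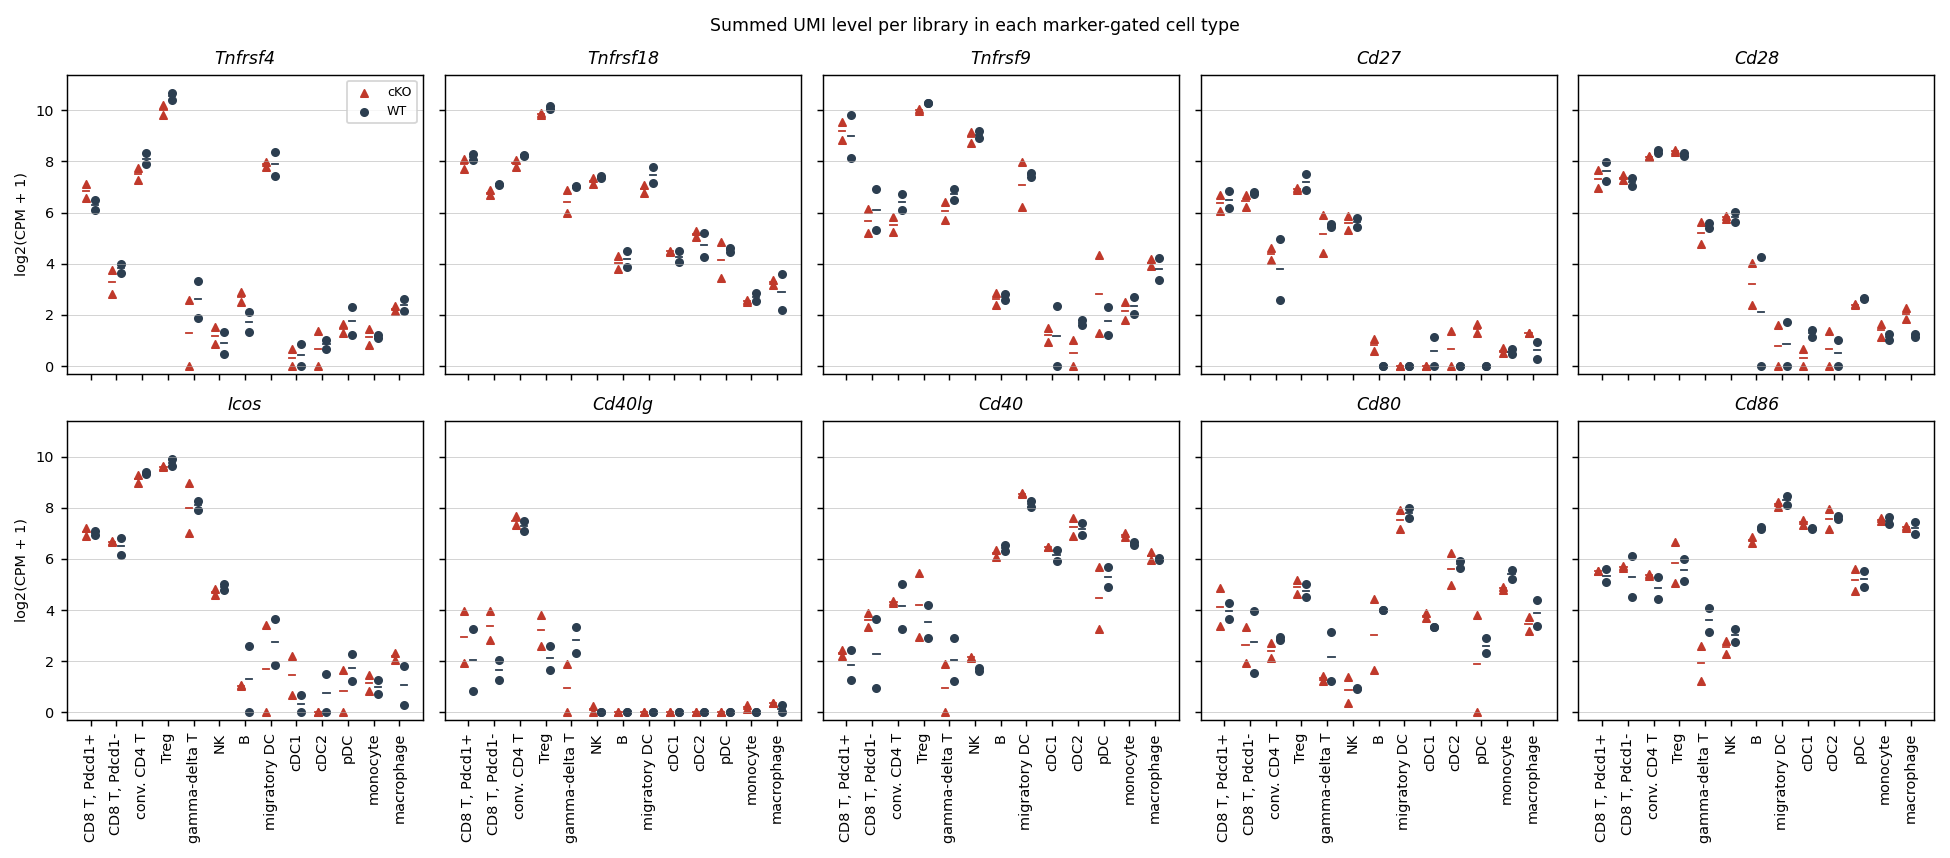
Level of each of the 10 genes (one panel per gene) in 13 gates, as log2(CPM + 1) of summed UMIs, with cKO libraries as red triangles on the left of each gate, WT libraries as dark circles on the right, and the mean of each genotype as a dash. Tnfrsf4, Tnfrsf9, Tnfrsf18, Cd27, Cd28 and Icos have their highest mean in Treg, Cd40lg in conventional CD4 T cells, and Cd40, Cd80 and Cd86 in migratory dendritic cells.

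Tnfrsf4, Tnfrsf9 and Tnfrsf18 were highest in Treg, and there the 4 libraries lay above every library of the other 12 gates. Tnfrsf4 had 1179 and 911 CPM in cKO Treg and 1369 and 1623 CPM in WT Treg. The next gates were migratory dendritic cells (245 ± 67.9 CPM) and conventional CD4 T cells (231 ± 68.1 CPM), whose libraries overlapped, followed by Pdcd1+ CD8 T cells (96.8 ± 28.9 CPM). OX40 transcripts were scarce elsewhere, with means of 0.353 to 4.19 CPM in the 8 remaining gates other than Pdcd1- CD8 T cells (11.3 ± 3.75 CPM).

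Tnfrsf18 had 958 and 900.3 CPM in cKO Treg and 1064 and 1155 CPM in WT Treg, and none of the other 12 gates had a mean above 273 CPM. The second level was shared by conventional CD4 T cells (273 ± 37.9 CPM) and Pdcd1+ CD8 T cells (264 ± 40.7 CPM), which overlapped. NK cells (159 ± 15 CPM), migratory dendritic cells (152 ± 48.1 CPM), Pdcd1- CD8 T cells (123 ± 16.9 CPM) and gamma-delta T cells (109 ± 32.2 CPM) formed the third level, without gaps between neighbours. GITR transcripts averaged 16.7 ± 4.17 CPM in B cells, below every T and NK cell gate.

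Tnfrsf9 had a second high level outside CD4 T cells. It had 1064 and 995 CPM in cKO Treg and 1252 and 1242 CPM in WT Treg. Pdcd1+ CD8 T cells followed with 463 and 746 CPM in cKO and 282 and 902 CPM in WT, the widest spread between libraries among the high gates of this gene. NK cells had 426 and 566 CPM in cKO and 479 and 584 CPM in WT and overlapped with Pdcd1+ CD8 T cells. Conventional CD4 T cells were low in 4-1BB, with 55.8 and 36.5 CPM in cKO and 68.6 and 105 CPM in WT.

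Cd27, the receptor for CD70 that is present on resting T cells, had its highest mean in Treg as well, with 123 and 116 CPM in cKO and 117 and 180.2 CPM in WT. Pdcd1- and Pdcd1+ CD8 T cells came next (97.7 ± 16.0 and 88.4 ± 23.3 CPM) and overlapped with each other. Conventional CD4 T cells had 16.8 and 23.7 CPM in cKO and 5.02 and 30.5 CPM in WT, the lowest of the T cell gates. No Cd27 UMI was found in migratory dendritic cells, where 3 counts would have been 3.85 to 7.02 CPM depending on the library.

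Treg were set against conventional CD4 T cells with the library as a block (edgeR quasi-likelihood test, Benjamini-Hochberg adjustment over all genes tested). Of the 10 genes, 6 were higher and 1 was lower in Treg, beside 7.85% of 7233 genes called higher and 7.38% called lower. Cd80 was too low to be tested within conventional CD4 T cells (20 UMIs), and Cd40lg within Treg (19 UMIs). Each passed the count filter through the other gate, so the filter set its direction. On the log2 scale Tnfrsf9 was higher by 4.07 ± 0.17 (SE, adjusted p = 1.48e-06), Cd27 by 2.68 ± 0.23 (adjusted p = 5e-05) and Tnfrsf4 by 2.38 ± 0.12 (adjusted p = 1.79e-06). Tnfrsf18 was higher by 1.81 ± 0.09 (adjusted p = 1.79e-06), Cd80 by 2.34 ± 0.31 (adjusted p = 0.000743) and Icos by 0.35 ± 0.10 (adjusted p = 0.0383). The Icos call did not hold with DESeq2 (adjusted p = 0.0633), in strict gates (adjusted p = 0.422) or without WT library 2 (adjusted p = 0.220), cKO library 1 (adjusted p = 0.148) or cKO library 2 (adjusted p = 0.0632). Cd28 differed by -0.03 ± 0.11 (adjusted p = 0.911), Cd40 by -0.06 ± 0.50 and Cd86 by 0.62 ± 0.32, none of them called.

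Tnfrsf4, Tnfrsf18 and Tnfrsf9 were each detected in most Treg. After each cell was thinned to 2000 UMIs, 70.4 ± 9.69% of Treg had a Tnfrsf4 UMI, 75.9 ± 7.23% a Tnfrsf18 UMI and 70.1 ± 4.71% a Tnfrsf9 UMI (SD, n = 4 libraries). Before thinning the means were 91.3%, 92.9% and 83.1%. In monocytes, taken as cells that should lack the genes, the thinned shares were 0.268%, 0.796% and 0.776%. Median depth was 4933 to 6453 UMIs per Treg and 8874 to 10935 per monocyte. Thinning kept 78 of 81 and 81 of 85 Treg in cKO and 50 of 52 and 144 of 152 in WT. Both Tnfrsf4 and Tnfrsf18 were detected in 85.2% and 81.2% of unthinned cKO Treg and in 92.3% and 86.8% of WT Treg.

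Among CD8 T cells the same 3 TNF receptors went with Pdcd1. They were higher in Pdcd1+ than in Pdcd1- cells, 3 of the 9 genes tested and beside 4.28% of 8734 genes called higher and 5.37% called lower. Tnfrsf9 had 463 and 746 CPM in cKO and 282 and 902 CPM in WT Pdcd1+ cells, against 36.2 and 68.7 CPM in cKO and 38.6 and 120.3 CPM in WT Pdcd1- cells. All 4 Pdcd1+ values lay above all 4 Pdcd1- values, a log2 difference of 3.09 ± 0.14 (adjusted p = 4.54e-05). Tnfrsf4 was higher by 2.97 ± 0.23 (adjusted p = 0.000398) and Tnfrsf18 by 1.00 ± 0.12 (adjusted p = 0.00204). Cd80 differed by 1.77 ± 0.58 and was not called (adjusted p = 0.0932), but it was called without the shared barcodes (1.94, adjusted p = 0.0353), in strict gates (adjusted p = 0.0415), without cells of high UMI count (adjusted p = 0.0088) and without WT library 1 (adjusted p = 0.0202). Cd28, the receptor of the classical second signal, differed by 0.07 ± 0.14 (adjusted p = 0.860), and Icos and Cd27 (0.35 ± 0.14 and -0.31 ± 0.13) did not pass.

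Within Pdcd1+ CD8 T cells, OX40 and 4-1BB transcripts were found in the same cells. A Tnfrsf9 UMI was present in 89.5% and 96.2% of Tnfrsf4-positive cells in cKO and in 80% and 90.9% in WT. Among Tnfrsf4-negative cells the share was 53.0% and 66.2% in cKO and 28.4% and 82.0% in WT. The share was larger among Tnfrsf4-positive cells in each of the 4 libraries. These shares were not thinned, so deeper cells weigh in both.

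Of 9 genes tested, 8 were lower in NK cells than in CD8 T cells, beside 16.7% of 10426 genes called lower and 15.3% called higher. Cd80, with 25 UMIs in NK cells, was too low to be tested within them. It passed the count filter through CD8 T cells, so the filter set its direction. Tnfrsf4 had 1.89 and 0.802 CPM in cKO and 0.388 and 1.51 CPM in WT NK cells, against 101 and 62.5 CPM in cKO and 35.0 and 67.4 CPM in WT CD8 T cells (log2 difference -5.81 ± 0.16, adjusted p = 3.08e-08). Icos fell by 2.12 on the log2 scale (SE 0.11, adjusted p = 1.74e-06), Cd28 fell by 1.54 (SE 0.15, adjusted p = 7.93e-05) and Cd27 fell by 0.87 (SE 0.08, adjusted p = 5.12e-05). Tnfrsf18 fell by only 0.36 (SE 0.06, adjusted p = 0.0022), a call lost without cells of high UMI count. Tnfrsf9 was the exception, with a difference of 0.49 ± 0.24 that did not pass (adjusted p = 0.162). The summed level of 9 myeloid genes was 951 and 996 CPM in cKO and 1601 and 1580 CPM in WT NK cells, against 3316 and 4151 CPM in cKO and 5675 and 1764 CPM in WT CD8 T cells. Its part in the Cd40, Cd80 and Cd86 differences (-0.99, -3.92 and -2.89) was not tested, and the Cd40 call was lost without cells of high UMI count (-0.05, adjusted p = 0.967), with DESeq2 (adjusted p = 0.0686) and without WT library 1 (adjusted p = 0.0579) or cKO library 2 (adjusted p = 0.0949).

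**Figure D2:**
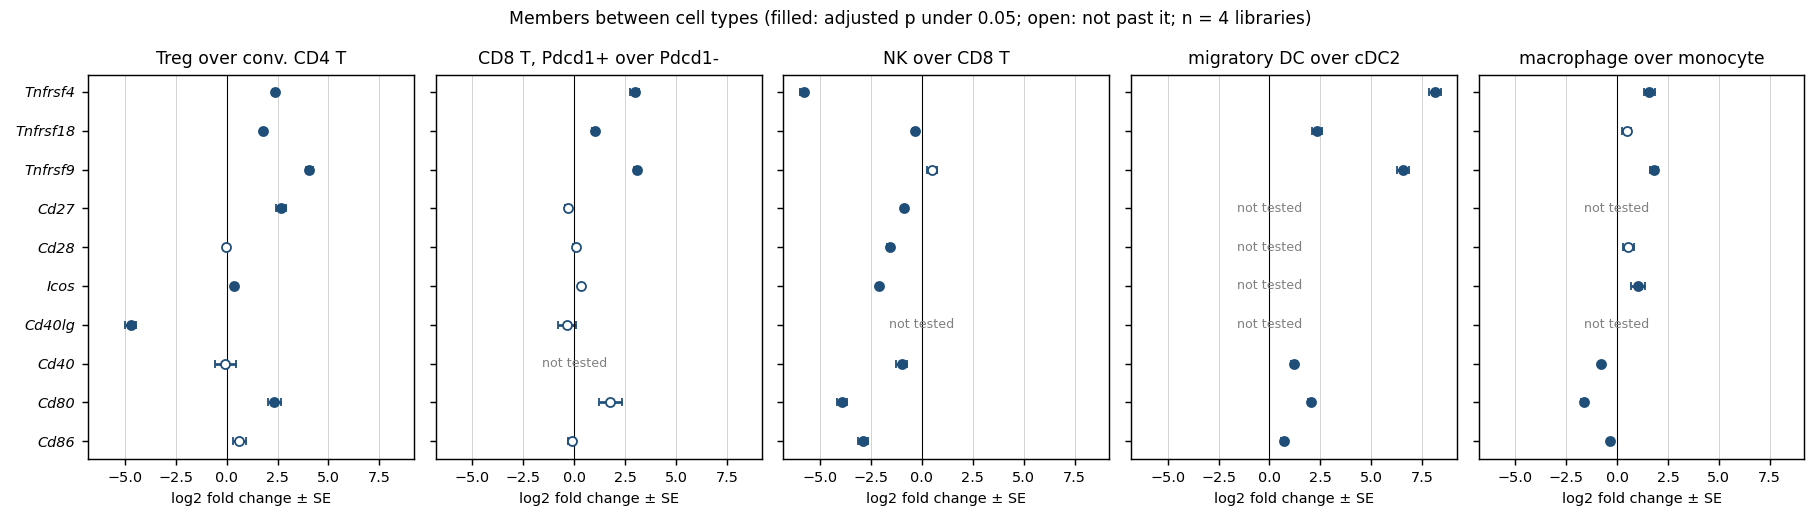
Log2 fold change ± SE of the 10 genes between gates, over 4 libraries with the library as a block, for Treg over conventional CD4 T cells, Pdcd1+ over Pdcd1- CD8 T cells, NK over CD8 T cells, migratory dendritic cells over cDC2 and macrophages over monocytes. Filled points have an adjusted p under 0.05 and open points do not; Tnfrsf9 reaches 4.07 in the first contrast and 3.09 in the second, and Cd40lg stands at -4.72 in the first.

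Cd28, like the TNF receptors of T cells, had its highest mean in Treg, but there it overlapped with conventional CD4 T cells. It had 352 and 331 CPM in cKO and 299 and 318 CPM in WT Treg, against 295 and 287 CPM in cKO and 348 and 319 CPM in WT conventional CD4 T cells. Both CD8 gates lay below them (183 ± 55.1 CPM with Pdcd1 and 155 ± 18.0 CPM without) and overlapped with each other, and NK cells stood at 56.0 ± 6.26 CPM. Against CD8 T cells, conventional CD4 T cells were higher in Cd28 by 0.90 ± 0.10 (adjusted p = 9.8e-05).

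Icos, a receptor induced on activated and follicular helper T cells and bound by ICOSL, was highest in Treg (791 and 766 CPM in cKO, 786 and 962 CPM in WT) and next in conventional CD4 T cells (499 and 625 CPM in cKO, 673 and 632 CPM in WT). Gamma-delta T cells varied most, with 128 and 503 CPM in cKO and 239 and 309.9 CPM in WT. Conventional CD4 T cells exceeded CD8 T cells by 2.34 ± 0.11 (adjusted p = 1.93e-07). In that contrast 6 of the 10 genes were higher and 3 lower in conventional CD4 T cells, beside 12.8% of 8651 genes called higher and 10.4% called lower. Cd80, among the lower, was too low to be tested within conventional CD4 T cells and passed the count filter through CD8 T cells. Among the higher was Cd40. In strict gates Cd40 had 0 CPM in both cKO libraries and 6.40 and 3.04 CPM in WT conventional CD4 T cells. Strict CD8 T cells had 4.38 and 2.86 CPM of it in cKO and 1.64 and 2.38 CPM in WT. Tnfrsf4 was higher by 1.74 ± 0.24 and Tnfrsf18 by 0.37 ± 0.09, whereas Tnfrsf9 fell by 2.65 (SE 0.27, adjusted p = 4.53e-05) and Cd27 fell by 2.16 (SE 0.28, adjusted p = 0.000229). The Tnfrsf18 call did not hold without WT library 2 (adjusted p = 0.0544) or without cKO library 1 (adjusted p = 0.0827).

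Gamma-delta T cells were set against conventional CD4 T cells. Of 8 genes tested, 6 were lower, beside 5.0% of 6906 genes called lower and 4.27% called higher. Among the lower, Tnfrsf4, Cd40lg and Cd86 (12, 12 and 22 UMIs in gamma-delta T cells) were too low to be tested within that gate. They passed the count filter through conventional CD4 T cells, so the filter set their direction. Tnfrsf4 fell by 5.70 on the log2 scale (SE 0.30, adjusted p = 1.25e-07) and Cd28 fell by 2.91 (SE 0.16, adjusted p = 1.51e-07), with 48.2 and 26.0 CPM of Cd28 in cKO and 41.4 and 46.9 CPM in WT gamma-delta T cells. Tnfrsf18 fell by 1.30 (SE 0.14, adjusted p = 6.18e-05) and Icos by 1.12 (SE 0.20, adjusted p = 0.00259). Tnfrsf9 (0.45 ± 0.18) and Cd27 (1.15 ± 0.37) did not pass.

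Cd40lg had its highest level in conventional CD4 T cells. Conventional CD4 T cells had 202 and 159.6 CPM in cKO and 136 and 177 CPM in WT, and the other 12 gates had means of at most 6.70 CPM. That gate held 701 Cd40lg UMIs of 1220 in all T cells, the rest lying mostly in T cells outside the subsets, and of 1841 in all kept cells. It fell by 4.72 in Treg relative to conventional CD4 T cells (SE 0.27, adjusted p = 6.1e-06), where Treg had 5.06 and 13.0 CPM in cKO and 2.17 and 5.09 CPM in WT. Conventional CD4 T cells exceeded CD8 T cells by 5.20 ± 0.35 (adjusted p = 2.72e-06). After thinning, 25.9 ± 1.78% of conventional CD4 T cells had a Cd40lg UMI (46.5% before thinning). No Cd40lg UMI was found in B cells, migratory dendritic cells, cDC1, cDC2 or plasmacytoid dendritic cells, where 3 counts would have been 1.54 to 5.01 CPM in B cells and 3.85 to 7.02 CPM in migratory dendritic cells.

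Cd40, Cd80 and Cd86 peaked in migratory dendritic cells, and for each the 4 libraries of that gate lay above all libraries of the next gate, cDC2. Cd40 had 380.1 and 369.6 CPM in cKO and 303 and 262 CPM in WT migratory dendritic cells, against 192 and 119 CPM in cKO and 169 and 122 CPM in WT cDC2. Cd80 had 142 and 241 CPM in cKO and 250.2 and 192 CPM in WT, against 30.7 and 74.3 CPM in cKO and 59.9 and 49.7 CPM in WT cDC2. Cd86 declined more gently over the gates, at 298 ± 40.7 CPM in migratory dendritic cells, 195 ± 44.1 CPM in cDC2, 182 ± 15.1 CPM in monocytes, 159 ± 18.0 CPM in cDC1, 151 ± 21.1 CPM in macrophages and 126 ± 24.8 CPM in B cells, with overlap between each pair of neighbours from cDC2 on.

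Against cDC2, migratory dendritic cells were higher in 6 of the 6 genes tested, beside 25.7% of 6113 genes called higher and 25.1% called lower. Tnfrsf4 and Tnfrsf9, with 3 and 7 UMIs in cDC2, were too low to be tested within that gate. They passed the count filter through migratory dendritic cells, so the filter set their direction. Cd80 was higher by 2.04 ± 0.15 (adjusted p = 4.09e-07), Cd40 by 1.20 ± 0.16 (adjusted p = 5.59e-05) and Cd86 by 0.71 ± 0.15 (adjusted p = 0.00149). Against cDC1, all 6 tested genes were also higher, beside 25.8% of 7039 genes called higher and 26.2% called lower. Tnfrsf4 and Tnfrsf9, with 2 and 9 UMIs in cDC1, again passed the filter through migratory dendritic cells. The log2 differences were 4.37 ± 0.20 for Cd80, 2.21 ± 0.13 for Cd40 and 1.07 ± 0.14 for Cd86 (largest adjusted p = 2.1e-05). After thinning, 39.2 ± 7.30% of migratory dendritic cells had a Cd40 UMI, 39.5 ± 2.48% a Cd86 UMI and 29.5 ± 6.90% a Cd80 UMI. Before thinning the means were 63.7%, 62.4% and 56.5%. Cd80 and Cd86 were both detected in 30.8% and 43.3% of unthinned cKO cells and in 50% and 37.7% of WT cells of this gate.

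The same dendritic cells carried transcripts of the TNF receptors Tnfrsf4, Tnfrsf9 and Tnfrsf18, but not of Cd27. Tnfrsf4 had 220.4 and 253 CPM in cKO and 173 and 334 CPM in WT migratory dendritic cells. In all, 517 Tnfrsf4 UMIs were counted there against 3 in cDC2, a ratio of 329 with a 95% counting interval of 112 to 1601, and against 2 in cDC1. Tnfrsf9 had 72.8 and 253 CPM in cKO and 168 and 187 CPM in WT, and its 377 UMIs compared with 7 in cDC2, a ratio of 103 (49.4 to 258). The intervals cover counting error only. Tnfrsf18 was higher than in cDC2 by 2.34 ± 0.25 (adjusted p = 8.57e-06).

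A summed list of 7 T cell genes stood at 24.3 and 15.6 CPM in cKO and 37.2 and 30.4 CPM in WT migratory dendritic cells, against 4027 and 3933 CPM in cKO and 4421 and 4386 CPM in WT conventional CD4 T cells. Cd27 was at 0 and Cd40lg at 0 in migratory dendritic cells, and Cd28 had 2 UMIs. Cells with both a Tnfrsf4 and a Tnfrsf18 UMI made up 26.2% and 31.7% of cKO and 31.9% and 32.8% of WT migratory dendritic cells. Thinned shares of cells with Tnfrsf4 were 32.9 ± 5.55% in migratory dendritic cells and 0.268 ± 0.0917% in monocytes.

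CD40, CD80 and CD86 transcripts were lower in macrophages than in monocytes. Of 8 genes tested 3 were higher and 3 lower in macrophages, beside 33.1% of 10860 genes called higher and 34.2% called lower. Cd80 had 7.98 and 12.3 CPM in cKO and 20.1 and 9.32 CPM in WT macrophages, against 26.9 and 28.9 CPM in cKO and 46.4 and 36.4 CPM in WT monocytes. Within each library the macrophages were lower, by 1.61 on the log2 scale (SE 0.14, adjusted p = 2.48e-06). Cd40 fell by 0.78 (SE 0.08, adjusted p = 9.45e-06) and Cd86 fell by 0.33 (SE 0.07, adjusted p = 0.00178). Tnfrsf9 was higher by 1.82 ± 0.20 and Tnfrsf4 by 1.58 ± 0.26, at means of 14.5 and 4.02 CPM in macrophages and 3.94 and 1.26 CPM in monocytes. The Icos call (1.02 ± 0.35, adjusted p = 0.0228) was lost without the shared barcodes (0.61, adjusted p = 0.150), with DESeq2 (adjusted p = 0.104) and without cKO library 1 (adjusted p = 0.128) or cKO library 2 (adjusted p = 0.0978).

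B cells carried Cd40 at 80.6 and 67.3 CPM in cKO and 78.6 and 91.8 CPM in WT, near the level of cDC1 (79.1 ± 13.2 CPM). Against cDC2, all 4 tested genes were lower in B cells, beside 27.5% of 7217 genes called lower and 28.8% called higher. Cd80 fell by 2.09 (SE 0.25, adjusted p = 1.49e-05), Cd40 fell by 0.98 (SE 0.16, adjusted p = 0.000199), Cd86 fell by 0.70 (SE 0.16, adjusted p = 0.0021) and Tnfrsf18 fell by 0.98 (SE 0.27, adjusted p = 0.00807). The Tnfrsf18 call was lost with DESeq2 (adjusted p = 0.0537), in strict gates (adjusted p = 0.0884) and without WT library 1 (adjusted p = 0.0542).

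CD80, CD86 and CD40 transcripts also appeared in T cell gates, beside myeloid RNA. Cd86 had 32.0 and 100.5 CPM in cKO and 34.7 and 63.1 CPM in WT Treg. The summed level of 9 myeloid genes was 3888 and 17501 CPM in cKO and 5589 and 7705 CPM in WT Treg, so the library highest in Cd86 was also the highest in these genes. Strict T cell gates ask for more UMIs of their own markers and allow fewer of other lineages. In them Cd86 had 31.3 and 102 CPM in cKO and 21 and 47.3 CPM in WT Treg. Cd40 in conventional CD4 T cells had 19.5 and 18.2 CPM in cKO and 31.8 and 8.53 CPM in WT, and in strict gates 0 CPM in both cKO libraries and 6.40 and 3.04 CPM in WT. It had been called higher than in CD8 T cells (1.62 ± 0.25, adjusted p = 0.000896), and the part of myeloid RNA in that call was not tested. Cd80 in Treg had 23.6 and 35.2 CPM in cKO and 21.7 and 31.6 CPM in WT.

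Of the ligands of these receptors, Cd70, Tnfsf4 and Icosl had their highest mean in migratory dendritic cells. Cd70, the CD27 ligand, averaged 51.7 ± 17.9 CPM in migratory dendritic cells and 9.04 ± 15.1 CPM in conventional CD4 T cells, the next gate. Its 109 UMIs in migratory dendritic cells stood against 1 in cDC2 and 0 in cDC1, at least 92.4-fold higher than the 3-count floor over the cDC1 gate. Tnfsf4, the OX40 ligand, averaged 26.6 ± 9.09 CPM in migratory dendritic cells, with 63 UMIs against 5 in cDC2, a ratio of 24.1 (9.79 to 76.7). Icosl averaged 166 ± 24.2 CPM in migratory dendritic cells and 91.0 ± 3.87 CPM in cDC2 (log2 difference 0.93 ± 0.15, adjusted p = 0.000278). Tnfsf9, the 4-1BB ligand, differed in that its mean was highest in cDC2, at 234 ± 75.4 CPM, next to 184 ± 40.4 CPM in migratory dendritic cells (-0.26 ± 0.18, adjusted p = 0.266). Tnfsf18, the GITR ligand, did not exceed a mean of 0.608 CPM in any gate.

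**Figure D3:**
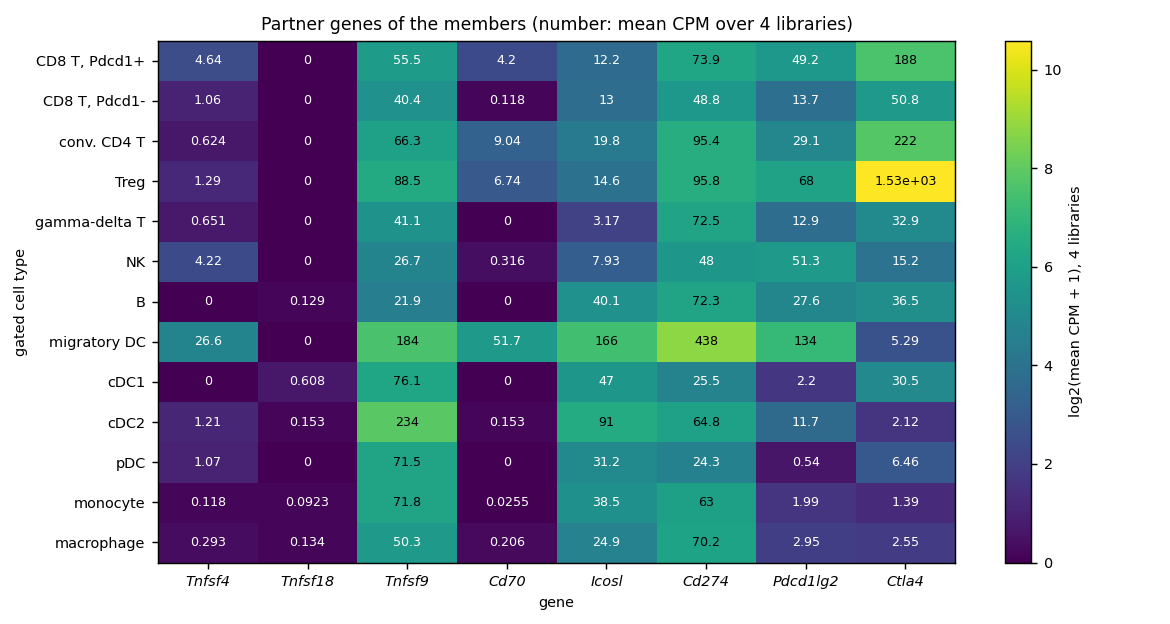
Heat map of mean CPM over 4 libraries for 8 partner genes (the ligands Tnfsf4, Tnfsf18, Tnfsf9, Cd70, Icosl, Cd274 and Pdcd1lg2, and the receptor Ctla4) in 13 gates. The ligands Cd70, Tnfsf4, Icosl, Cd274 and Pdcd1lg2 are highest in migratory dendritic cells, Tnfsf9 in cDC2 and Ctla4 in Treg.

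Of a pathway list of 41 further genes (ligands, other receptors, TRAF adaptors, signalling genes and NF-kB genes with their targets), 32 were tested between migratory dendritic cells and cDC2. There 23 were higher and 4 lower in migratory dendritic cells, beside 25.7% of all genes called higher and 25.1% lower, with a median log2 difference of 1.43 beside 0.02 over all genes. Against cDC1, 26 of 33 were higher and 4 lower, beside 25.8% and 26.2%. Relative to cDC2, the NF-kB subunit Relb was higher by 3.31 ± 0.18 (adjusted p = 3.29e-08) and the interleukin 2 receptor subunit Il2ra by 4.93 ± 0.27. In the same contrast the survival gene Bcl2a1b was higher by 2.94 ± 0.20 and the phosphoinositide 3-kinase subunit Pik3r1 by 2.57 ± 0.16. The PD-1 ligands Pdcd1lg2 and Cd274 were higher than in cDC2 by 3.48 ± 0.22 and 2.82 ± 0.28.

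In Treg against conventional CD4 T cells, 35 of the list were tested, of which 11 were higher and 5 lower, beside 7.85% and 7.38% of all genes (median 0.10, beside 0.02). Ctla4 was higher by 2.73 ± 0.11 (adjusted p = 1.43e-06), with a mean of 1534 ± 213 CPM in Treg and 222 ± 69.2 CPM in conventional CD4 T cells, and Il2ra by 3.97 ± 0.16. Tnfrsf1b, which encodes TNFR2, was higher by 1.29 ± 0.13 and Nfkb2 by 1.01 ± 0.14. Between Pdcd1+ and Pdcd1- CD8 T cells 7 of 35 were higher and 2 lower, beside 4.28% and 5.37% of all genes. Among the higher were Ctla4 (1.88 ± 0.16, adjusted p = 0.000471), Pdcd1lg2 (1.86 ± 0.24, adjusted p = 0.00306) and Nfkb2 (0.96 ± 0.14). Between NK and CD8 T cells 7 of 36 were higher and 11 lower, beside 15.3% and 16.7% of all genes, and Ctla4 fell by 3.18 (SE 0.22, adjusted p = 9.48e-06).

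The remaining contrasts of the list are given as counts beside the shares of all genes called. Conventional CD4 T cells were higher than CD8 T cells in 14 of 36 genes and lower in 0, beside 12.8% and 10.4%. Gamma-delta T cells were higher than conventional CD4 T cells in 1 of 34 and lower in 6, beside 4.27% and 5.0%. Macrophages were higher than monocytes in 6 of 36 and lower in 19, beside 33.1% and 34.2%. B cells were higher than cDC2 in 10 of 28 and lower in 13, beside 28.8% and 27.5%, and there Tnfsf9 fell by 3.48 (SE 0.20, adjusted p = 3.66e-08).

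The likeness of the 10 genes over the 13 gates is given as a description, with no grouping tested. Pearson's r of mean log2(CPM + 1), which describes 13 points that share the 4 libraries, was 0.94 between Cd28 and Icos, 0.93 between Cd27 and Cd28, 0.91 between Cd40 and Cd86, 0.86 between Tnfrsf9 and Tnfrsf18 and -0.88 between Cd27 and Cd40. Icos and Tnfrsf18 had 0.85 and Cd80 and Cd86 had 0.82. Tnfrsf4, high in both Treg and migratory dendritic cells, had 0.45 with Cd27, 0.36 with Cd80, 0.03 with Cd86 and -0.10 with Cd40. Among 8205 genes the closest in pattern to Tnfrsf4 was Ikzf4 (0.91), to Tnfrsf18 Rbl1 (0.93), to Cd27 Tox (0.98) and to Cd28 Baz1b (0.98). Camk4 was closest to Icos (0.98), Trat1 to Cd40lg (0.93), Ccdc28b to Cd40 (0.96), Kcnk6 to Cd80 (0.95) and Rgs19 to Cd86 (0.92).

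The question of the study design, whether cKO cells differ from WT cells, was put to each gene in each of the 15 gates. In 108 tests no gene passed (edgeR quasi-likelihood test, smallest adjusted p = 0.806), and 7 had an unadjusted p under 0.05. DESeq2 called 0 as well. Without a filter on low counts 2 genes were called in all T cells, 1 in conventional CD4 T cells and 1 in monocytes. Among all genes, 0.0% were called in 12 gates, 0.0263% in conventional CD4 T cells, 0.0566% in NK cells and 0.0145% in cDC2. With 2 libraries per genotype an exact permutation test of a single value could not go below p = 0.333. Values of Tnfrsf4, Tnfrsf9 and Tnfrsf18 in conventional CD4 T cells and in Treg are given next as descriptions. In the main gates their genotypes did not overlap there. In strict gates they overlapped in conventional CD4 T cells but not in Treg.

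In conventional CD4 T cells Tnfrsf4 had 215 and 153 CPM in cKO, against 318 and 238 CPM in WT. Tnfrsf9 had 55.8 and 36.5 CPM in cKO against 68.6 and 105 CPM in WT, and Tnfrsf18 had 267 and 222 CPM in cKO against 303 and 299.8 CPM in WT. Both cKO libraries lay below both WT libraries for each of the 3 genes. The log2 differences were -0.60 ± 0.20 for Tnfrsf4 (unadjusted p = 0.00928, adjusted p = 1.00), -0.94 ± 0.27 for Tnfrsf9 (unadjusted p = 0.00385, adjusted p = 1.00) and -0.33 ± 0.17 for Tnfrsf18 (adjusted p = 1.00). In strict gates they were -0.14, -0.60 and -0.13, and there the genotypes overlapped for each gene. Strict gating, which also asks for more marker UMIs, left 120 of 231 and 79 of 166 cells in cKO. It left 56 of 102 and 60 of 156 in WT. Strict Tnfrsf4 had 294 and 212 CPM in cKO against 250 and 301 CPM in WT. Strict Tnfrsf9 had 45.8 and 50.6 CPM in cKO against 35.2 and 106 CPM in WT. Strict Tnfrsf18 had 323 and 251 CPM in cKO against 301 and 322 CPM in WT. Without WT library 1 the Tnfrsf9 difference was -1.22. The 9 myeloid genes summed to 8166 and 7921 CPM in cKO and 5332 and 2814 CPM in WT conventional CD4 T cells, and their part was not tested. Of 9 genes tested in this gate, 5 had both cKO libraries lower and 1 had both higher, beside 13.9% of all genes tested with both cKO libraries lower and 17.6% with both higher.

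In Treg the same 3 TNF receptors had both cKO libraries below both WT libraries and Cd28 had both above, among 9 genes tested, beside 14.9% of all genes with both cKO libraries lower and 12.9% with both higher. The log2 differences were -0.50 ± 0.22 for Tnfrsf4, -0.25 ± 0.18 for Tnfrsf9 and -0.23 ± 0.19 for Tnfrsf18 (adjusted p = 1.00 each). In strict Treg gates, of 44 and 38 cells in cKO and 33 and 81 in WT, the genotypes stayed apart for each gene. Strict Tnfrsf4 had 1402 and 923 CPM in cKO against 1727 and 1717 CPM in WT. Strict Tnfrsf9 had 1214 and 1118 CPM in cKO against 1412 and 1252 CPM in WT. Strict Tnfrsf18 had 1058 and 1121 CPM in cKO against 1232 and 1184 CPM in WT. The 9 myeloid genes summed to 3888 and 17501 CPM in cKO and 5589 and 7705 CPM in WT Treg. The library highest in these myeloid genes, cKO library 2, was the lowest in all 3 receptors. The library lowest in them, cKO library 1, was also below both WT libraries in all 3 receptors. The part of the myeloid genes was not tested. In CD8 T cells none of the 10 genes had separate genotypes, beside 29.4% of all genes. Tnfrsf9 there had 341 and 506 CPM in cKO and 141 and 668 CPM in WT, and WT held both the lowest and the highest value (-0.06 ± 0.61, adjusted p = 1.00). Without WT library 2 the difference was 1.54 (adjusted p = 0.0161), without WT library 1 it was -0.78 and without cKO library 1 it was 0.19. Strict gates gave 0.20 and the replicate block 0.31, so the sign of this value rests on the library and the setting.

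The cKO effect was also compared between gates. The difference in Tnfrsf4 between cKO and WT in CD8 T cells less that in conventional CD4 T cells was 1.15 ± 0.35 on the log2 scale (unadjusted p = 0.00721), that of Tnfrsf9 was 1.06 ± 0.47 (unadjusted p = 0.0475) and that of Cd40lg was 1.74 ± 0.75 (unadjusted p = 0.0419), all with an adjusted p = 1.00. No gene of the 10 was called, beside 0.0216% of all genes. Each of the 3 values moved with the library left out. Tnfrsf4 reached 1.94 without WT library 2 (adjusted p = 0.00457) and Tnfrsf9 reached 1.74 without cKO library 1 (adjusted p = 0.00371). Cd40lg reached 2.44 without cKO library 2 (adjusted p = 0.0379) and stood at -0.012 without WT library 2. All 3 passed without a filter on low counts. Between Treg and conventional CD4 T cells Tnfrsf9 differed by 0.68 ± 0.28 (adjusted p = 1.00), with 0 of 10 genes called beside 0.0%. Between migratory dendritic cells and cDC2 none of 6 was called, beside 0.0143%.

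Among antigen-presenting cells, monocyte Cd80 had 26.9 and 28.9 CPM in cKO against 46.4 and 36.4 CPM in WT. Both cKO libraries were lower, a log2 difference of -0.57 ± 0.13 with the smallest adjusted p of the 108 tests (0.806, unadjusted p = 0.00432). Monocyte Cd40 had 127 and 116 CPM in cKO against 93.3 and 99.3 CPM in WT, both cKO libraries higher (0.33 ± 0.12, adjusted p = 0.861). These were 2 of 8 genes tested, beside 32.0% of all genes whose genotypes were apart in monocytes. The 9 myeloid genes summed to 29828 and 27272 CPM in cKO and 31358 and 28165 CPM in WT monocytes. In the all-T gate Cd40 had 17.6 and 16.0 CPM in cKO against 12.1 and 6.01 CPM in WT (0.91 ± 0.30, adjusted p = 1.00), while the 9 myeloid genes summed to 5533 and 5656 CPM in cKO and 5432 and 2766 CPM in WT, and their part was not tested. Cd27 had 69.7 and 62.9 CPM in cKO against 79.9 and 83.7 CPM in WT T cells (-0.38 ± 0.14, adjusted p = 1.00). Macrophage Cd28 rested on few molecules, 26 and 9 UMIs in cKO against 5 and 13 in WT (1.35 ± 0.48, adjusted p = 1.00).

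In the other gates the 2 genotypes were apart for 3 of 10 tested genes in all T cells (Cd40 higher, Cd27 and Tnfrsf18 lower in cKO), beside 28.7% of all genes, for 1 of 10 in Pdcd1+ CD8 T cells (Tnfrsf4 higher), beside 29.0%, and for 2 of 9 in Pdcd1- CD8 T cells, beside 29.3%. In gamma-delta T cells it held for Tnfrsf9 and Tnfrsf18, both lower and 2 of 5 tested, beside 28.5%. Without cKO library 1, Tnfrsf18 (-1.12) and Icos (0.82) passed in gamma-delta T cells, and without cKO library 2 Icos passed in the other direction (-1.02). In NK cells it held for 1 of 8, beside 32.6%, and in B cells for 1 of 5 (Cd86 lower), beside 28.7%. In cDC1, Cd40, Cd80 and Cd86 were higher in both cKO libraries, 3 of the 4 genes tested, beside 31.8%. The count was 2 of 6 in migratory dendritic cells (Cd40 higher, Tnfrsf18 lower), beside 28.4%, and 2 of 8 in macrophages, beside 25.1%. It was 0 of 4 in cDC2, beside 34.0%, and 0 of 3 in plasmacytoid dendritic cells, beside 31.3%.

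**Figure D4:**
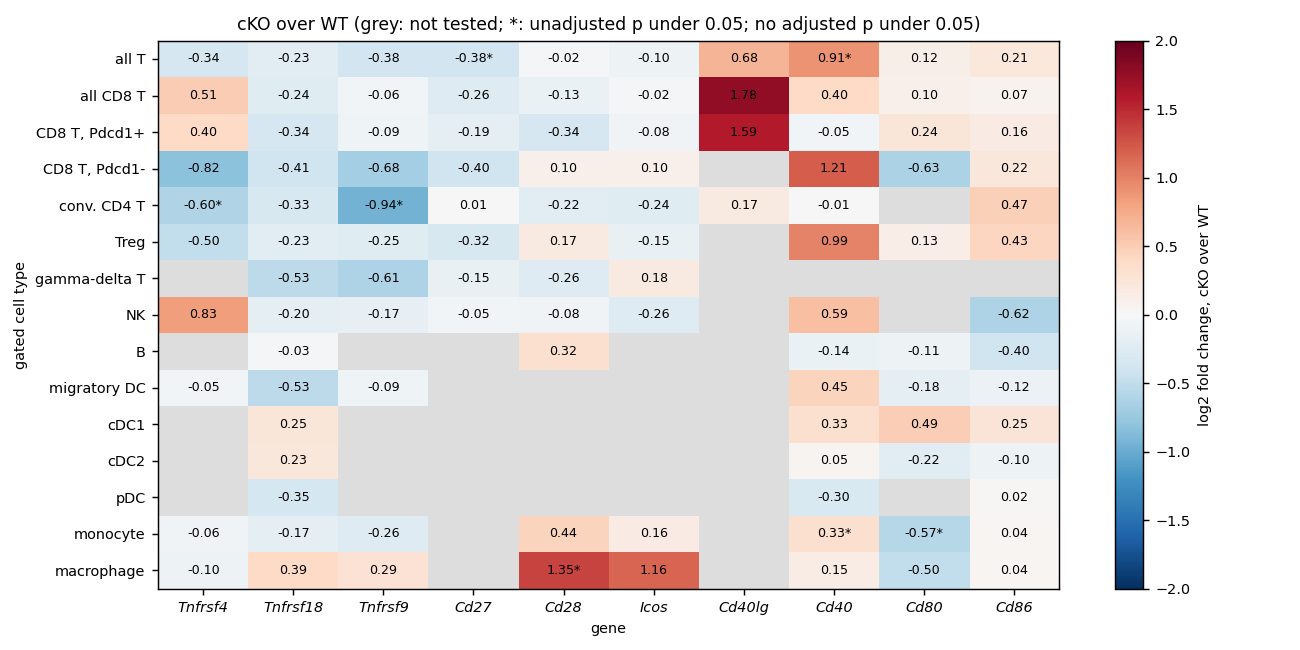
Heat map of the log2 fold change of cKO over WT for the 10 genes in 15 gates, with grey where a gene was not tested and a star where the unadjusted p was under 0.05. Of 108 tested values 7 carry a star and none passed adjustment; Tnfrsf9 ranges from -0.94 to 0.29 and Tnfrsf18 from -0.53 to 0.39.

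Over the gates, Tnfrsf18 was negative in 12 of 15 tests (-0.53 to 0.39), Tnfrsf9 in 10 of 11 (-0.94 to 0.29) and Cd27 in 7 of 8. Tnfrsf4 was negative in 7 of 10, Icos in 6 of 10, and Cd28 and Cd80 each in 6 of 11. Cd40 was positive in 10 of 14 (-0.30 to 1.21), Cd86 in 10 of 14 and Cd40lg in 4 of 4. The gates share the same 4 libraries and some gates contain others, so these signs are not independent. Of the partner genes, unadjusted p-values under 0.05 were found for Ctla4 in conventional CD4 T cells (-0.62 ± 0.21, adjusted p = 1.00), Tnfsf9 in NK cells (-0.53 ± 0.15, adjusted p = 0.997) and Cd274 in monocytes (0.52 ± 0.15, adjusted p = 0.855), among others, and none of the 41 pathway genes was called in any gate.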

How the data were processed

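The authors deposited raw UMI count matrices per library, made with Cell Ranger 6.1.1 per the file headers. CASAVA 1.8 and Seurat are named in the submitters' processing notes, and the genome build is not given in the sources used here. Of 31253 feature IDs, 31107 were in GENCODE M21. A barcode was kept as a cell if it had 300 or more detected genes and no more than 15% of its UMIs from mitochondrial genes (alternative 500 and 10%). Cells were gated by marker UMIs rather than clustered. No doublet caller was run. Each gate limited marker UMIs of other lineages but allowed a few of some of them, so cells of mixed lineage may remain. An alternative left out cells over 2.5 times their gate's median UMIs. Strict gates, another alternative, asked for more UMIs of each gate's own markers. In the T, NK, B and monocyte gates they also allowed fewer UMIs of other lineages. Gates of at least 20 cells per library were used. UMIs were summed per gate and library and tested with edgeR 4.0.16 (R 4.3.3, TMM, filterByExpr, quasi-likelihood test), with Benjamini-Hochberg adjustment over all genes tested and a threshold of 0.05. DESeq2 1.42.0 was an alternative. Contrasts between gates and comparisons of cKO effects between gates carried the library as a block, and genes used for gating were left out of contrasts between gates. A gene could pass the count filter of a contrast through 1 gate alone. For a gene nearly absent from the other gate, the filter then set the direction. This holds for the pathway list and for all genes as well. The scripts were tested on simulated data. Shares were taken after thinning to 2000 UMIs (alternative 1000, seed 7), and floors are 3 counts. In bulk sums of a gate, fewer expressing cells and less RNA per cell cannot be told apart.

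The 10 genes, the gates and the gene lists were chosen with earlier results of these data known. Partner genes named always are the ligands and Ctla4, and otherwise the 4 called list genes of smallest p in a contrast may be named. The 3 genes closest in pattern were ranked by Pearson's r over the mean log2(CPM + 1) of 13 gates, among genes reaching 20 CPM, and the first is given, except for Tnfrsf9, where it is not reported here. The effect of each alternative is given under the dependence on processing.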

Additional observations from a re-analysis of the deposited data

How the results depend on the processing

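In 598 alternative values of the 55 called differences between gates, 579 kept the call, 19 lost it and 0 reversed. An alternative in which the gene was too low to be tested gave no value and is in none of these counts. The cKO comparisons called 0 of the 10 genes in every gate with DESeq2, size-factor (RLE) scaling, the stricter cell filter, strict gates and without the shared barcodes, a setting chosen after seeing the data. Without a filter on low counts, 2 genes were called in all T cells (Cd40 and Cd40lg), 1 in conventional CD4 T cells (Tnfrsf9, -0.93), 1 in monocytes (Cd80, -0.57) and 3 in the CD8 less conventional CD4 comparison; the cause was not tested. Leaving out 1 library in turn gave 0 to 1 calls in CD8 T cells, 0 to 1 in conventional CD4 T cells, 0 to 2 in gamma-delta T cells and 0 to 1 in the CD8 less conventional CD4 comparison. The conventional CD4 call was Tnfrsf9 without WT library 1 (-1.22, adjusted p = 0.000897). The gamma-delta calls were Icos (0.82) and Tnfrsf18 (-1.12) without cKO library 1, and Icos in the opposite direction (-1.02) without cKO library 2. Tnfrsf9 in CD8 T cells, -0.06 as reported, took the other sign without WT library 2 (1.54) and without cKO library 1 (0.19), within a range of -0.78 to 1.54 over the libraries left out, and also without cells of high UMI count (0.020), in strict gates (0.20) and with the replicate block (0.31). Cd40lg in the CD8 less conventional CD4 comparison, 1.74 as reported, ran over -0.012 to 2.80 with 1 library left out, with the lowest value without WT library 2. Same-numbered libraries deviated together with r of -0.06 to 0.29 over gates, with only 2 pairs and no label that pairs them, and the fit with the replicate block called 0 of the 10 genes in each gate. Counts over all genes moved more, from 843 to between 133 (without cKO library 2) and 1385 for Pdcd1+ against Pdcd1- CD8 T cells, from 1102 to between 648 and 1529 for Treg against conventional CD4 T cells, and from 640 to between 308 and 1172 for gamma-delta T cells. In the cKO comparisons they stood at 0 to 6 as reported and reached 191 (monocytes, no filter) and 135 (gamma-delta T cells without cKO library 1). Thinning to 1000 UMIs moved 41 of 60 shares by more than 1 SD and kept the gate of highest share for 9 of the 10 genes. Depth limits the low genes most, since gates of 49 to 94 cells per library put 3 counts at several CPM.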
